A study of Mus musculus with 18 samples.

Results

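Tead1 and 9 further genes of the Hippo pathway core were examined in the liver of male C57BL/6J mice fed quercetin, a dietary flavonol, or a control diet. The 10 genes were the transcription factors Tead1, Tead2, Tead3 and Tead4, the coactivators Yap1 and Wwtr1, the kinases Lats1, Lats2 and Stk3, and the scaffold Sav1. They were found as the Affymetrix probe sets whose platform annotation gives 1 of these symbols alone, and every such probe set is described. This gave 21 probe sets from 9 of the 10 genes, out of 34945 single-symbol probe sets of 18193 genes on the array. Stk3 had no probe set of this kind and was not analysed here, and 1 probe set annotated to both Xpo4 and Lats2 was left out. Tead1 was chosen on its difference between 1% quercetin and control in these same arrays, so its values are a description and carry no test in any comparison, since the 3 comparisons share mice.

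The 18 arrays held liver RNA of 18 mice, 1 mouse per array, with 6 mice on each of 3 diets. The diets were AIN93G as the control, AIN93G with 0.05% quercetin and AIN93G with 1% quercetin, given for 20 weeks from 5 weeks of age. No genotype was altered in any group, and all mice were killed under pentobarbital. The labels put 3 mice in a cage without giving the cage of each mouse, so no model could include cage. The p-values measure the spread between mice and treat the mice as independent. Where cage mates resemble each other, the p-values and SEs may be too small and the intervals too narrow.

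In the Hippo pathway, Stk3 and its relative Stk4, held by the scaffold Sav1, activate the kinases Lats1 and Lats2. These phosphorylate the coactivators Yap1 and Wwtr1 (also called TAZ) and keep them out of the nucleus. Unphosphorylated Yap1 and Wwtr1 bind TEAD factors on DNA and switch on genes of growth and matrix, among them Ccn1 and Ccn2. In the mouse, active Yap1 or loss of the upstream kinases enlarges the liver. Most of this regulation acts on protein phosphorylation and location, which an array of transcripts does not measure.

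TEAD factors bind the hexamer CATTCC, and its reverse complement GGAATG when read on the other strand. Promoter windows of 300 bases (250 before to 50 after the start site, RefSeq, GRCm38.p6) were read for these letters on both strands. Of 32851 windows of the same length, 14.7% held the hexamer at least once, 1.36% at least 2 times and 0.131% at least 3 times. The table held 11 windows for 7 of the 10 genes, and 7 of these windows, from 5 genes, held it. The Wwtr1 windows overlap and share their hexamer. Of 16 windows from 15 genes of the target list used below, 5 held it. Sav1, Wwtr1, Lats2 and Ankrd1, whose values are also followed below, hold it and are not printed. The windows of Tead3, Yap1 and the target gene Ccn1 are shown as examples, and capitals mark the hexamer. The Tead3 window on the minus strand at chr17:28350551-28350850 holds it 3 times, beginning 123 and 114 bases before the start site and again just after it. The Yap1 window (minus strand, chr9:8004547-8004846) holds it once, 141 bases before the start. The Ccn1 window (minus strand, chr3:145649936-145650235) holds it once, 103 bases before the start. Tead3 has 2 further windows from other start sites that overlap the printed window in part, of which 1 holds a single hexamer. A match describes the letters only and is not a binding site.
Tead3: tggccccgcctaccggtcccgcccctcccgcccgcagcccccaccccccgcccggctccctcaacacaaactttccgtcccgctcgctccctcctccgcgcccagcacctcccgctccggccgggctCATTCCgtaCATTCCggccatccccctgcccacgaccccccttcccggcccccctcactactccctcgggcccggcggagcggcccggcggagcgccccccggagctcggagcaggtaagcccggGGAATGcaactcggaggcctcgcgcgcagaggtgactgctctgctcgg
Yap1: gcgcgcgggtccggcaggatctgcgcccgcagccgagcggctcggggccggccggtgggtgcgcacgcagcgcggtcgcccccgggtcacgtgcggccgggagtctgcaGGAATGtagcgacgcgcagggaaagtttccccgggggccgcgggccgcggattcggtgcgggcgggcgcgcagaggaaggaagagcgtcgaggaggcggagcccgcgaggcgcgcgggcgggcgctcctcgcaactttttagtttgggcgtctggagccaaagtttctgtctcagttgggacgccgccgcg
Ccn1: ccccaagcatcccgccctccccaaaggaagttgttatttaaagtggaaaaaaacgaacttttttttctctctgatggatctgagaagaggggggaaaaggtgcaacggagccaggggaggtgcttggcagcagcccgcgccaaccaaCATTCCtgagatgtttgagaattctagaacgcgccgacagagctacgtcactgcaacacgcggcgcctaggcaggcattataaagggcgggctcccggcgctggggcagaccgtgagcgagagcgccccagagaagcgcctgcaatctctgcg

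Levels are on the scale log2(intensity + 16). Group values are mean ± SD over 6 mice per diet, and differences are log2 ± SE from a limma fit to all 22888 probe sets that passed a filter on low values. That filter was a mean level above 4.69, which equals an intensity of 9.85. Array medians of intensity lay between 14.2 and 21.9, and the medians of the tested probe sets averaged 6.49 ± 0.11 in controls, 6.52 ± 0.18 at 0.05% and 6.45 ± 0.15 at 1%. The correlation of each array with its own diet lay between 0.976 and 0.988, and 1% quercetin replicate 1 was the lowest, so differences between 1% quercetin and control that moved by over 1.5 times without it are also given without it. All 5 hepatocyte markers, Alb, Apoa1, Ttr, Hnf4a and Cps1, were above the filter, and 0 of 3 mesothelial markers were. Over all tested probe sets the fit called 1 lower and 0 higher at 1% against control, 0 at 0.05% against control, and 2 lower at 1% against 0.05%. Leaving out single arrays moved these counts to between 0 and 5. Named after their values were seen, these were Cfap298 in the 1% to control comparison, and Bcl6 and Nav2 in the comparison of both quercetin diets.

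The Tead1 probe set 1429556_at was higher in both quercetin diets than in controls, and this is the difference for which Tead1 was chosen. Tead1 encodes a TEAD factor that the mouse embryo needs for its heart. The 6 controls had 6.29, 6.49, 6.50, 6.73, 6.80 and 6.81, and the 6 mice at 0.05% had 6.77, 6.86, 7.07, 7.23, 7.24 and 7.25. At 1% quercetin they had 7.03, 7.09, 7.14, 7.19, 7.20 and 7.34. All 6 mice at 1% lay above every control, as did 5 of 6 at 0.05%, and the remaining 0.05% mouse, at 6.77, lay below 2 of the controls. On the deposited scale the mean intensity was 82.1 ± 13.9 in controls, 119 ± 19.1 at 0.05% and 128 ± 10.7 at 1%.

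The log2 difference of 1429556_at was 0.56 ± 0.13 for 1% against control and 0.47 ± 0.13 for 0.05% against control. Between the 1% and 0.05% diets it was 0.10 ± 0.13, with means of 7.16 and 7.07 and groups that overlapped. The SD within a diet was 0.21 in controls, 0.21 at 0.05% and 0.11 at 1%. Leaving out each array in turn kept the 1% to control difference between 0.50 and 0.60 and the 0.05% to control difference between 0.40 and 0.53. Without 1% quercetin replicate 1 the 1% to control difference was 0.55. Among all 22888 tested probe sets, 36 (0.157%) separated the 6 mice at 1% from the 6 controls without overlap, 7 of them higher and 29 lower. The Tead1 probe set is 1 of the 7, which the choice of the gene fixed, and none of the other 14 tested member probe sets separated these groups. In the 0.05% comparison with controls, 33 probe sets (0.144%) separated the groups, and 0 of the 15 member probe sets did.

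**Figure D1:**
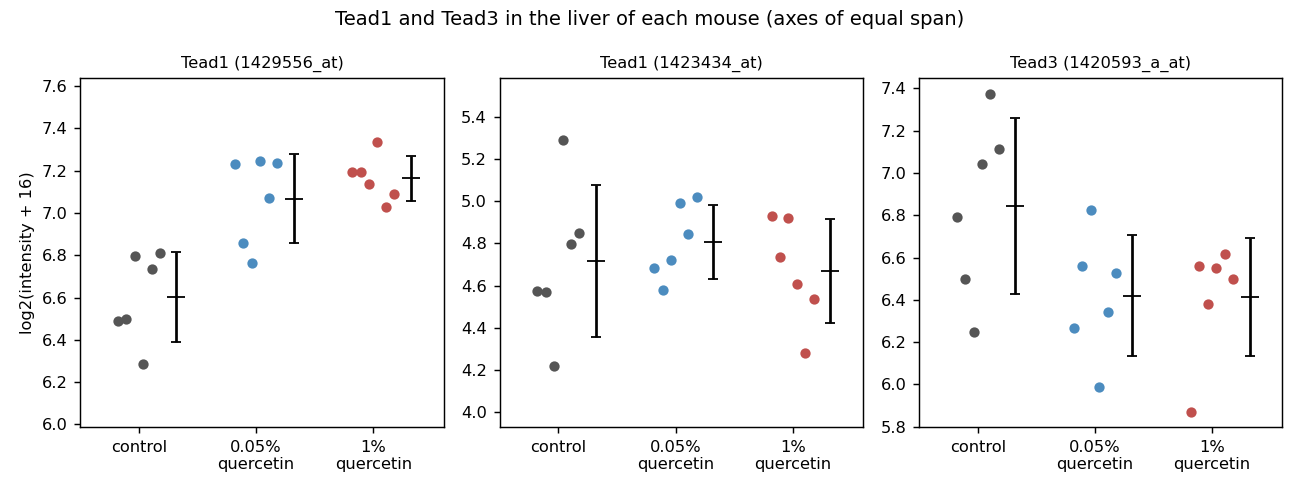
Level, log2(intensity + 16), of 2 Tead1 probe sets and the Tead3 probe set in each mouse by diet, with 6 points per diet, a horizontal mark at the mean and bars of 1 SD. For Tead1 1429556_at the 6 mice at 1% start at 7.03 and the controls end at 6.81, whereas the groups overlap for Tead1 1423434_at and Tead3.

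Putting the arrays on a common scale did not remove this difference. With each array scaled to the same median, Tead1 1429556_at averaged 6.59 ± 0.20 in controls, 7.01 ± 0.16 at 0.05% and 7.24 ± 0.13 at 1%. After quantile normalization the means were 6.59 ± 0.15, 7.05 ± 0.11 and 7.20 ± 0.12 in the same order. The 1% to control difference was 0.65 with median scaling and 0.61 with quantile normalization, and all 6 mice at 1% again lay above every control in both. The 0.05% to control difference was 0.43 and 0.46, with 5 and 6 of 6 mice above every control. The 1% to 0.05% difference moved more, to 0.23 with median scaling and 0.15 with quantile normalization.

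**Figure D2:**
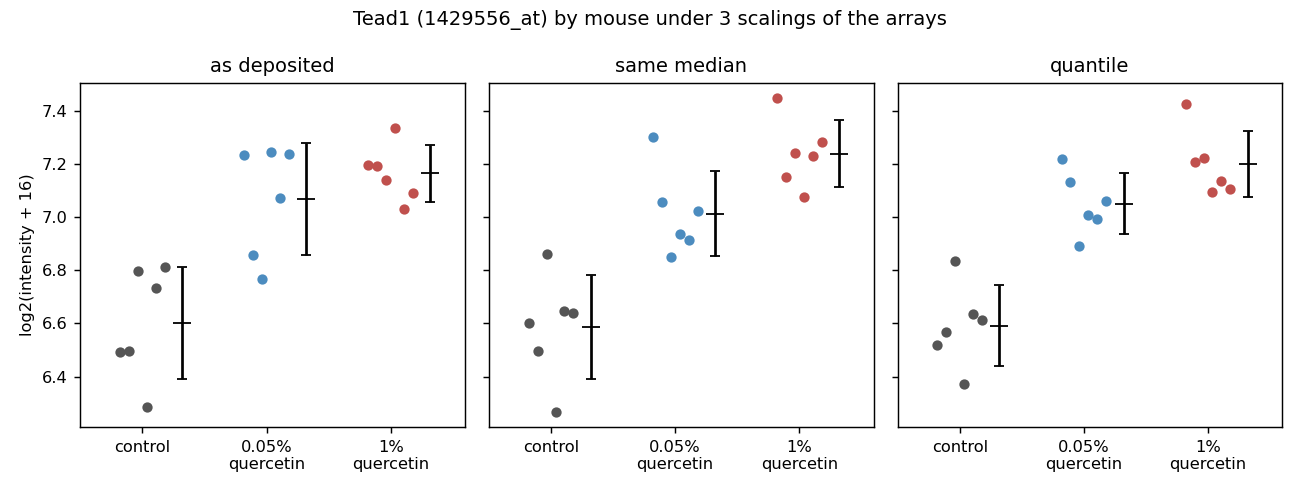
Level of Tead1 1429556_at in each mouse by diet under 3 scalings of the arrays, as deposited, scaled to the same median and quantile normalized, with mean marks and bars of 1 SD. The lowest mouse at 1% lies above the highest control in all 3 panels.

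The other Tead1 probe set, 1423434_at, did not follow the same pattern. Its overall mean of 4.73 lay just above the filter of 4.69, and its mean intensity was 11.0 ± 7.0 in controls, 12.2 ± 3.4 at 0.05% and 9.7 ± 4.3 at 1%. The lowest, median and highest mice had 4.22, 4.69 and 5.29 in controls, 4.58, 4.78 and 5.02 at 0.05%, and 4.28, 4.67 and 4.93 at 1%, so the control range held every mouse of both quercetin diets. Its log2 difference from controls was -0.05 ± 0.16 at 1% and 0.09 ± 0.16 at 0.05%, and between the 1% and 0.05% diets it was -0.14 ± 0.16. The signs of both differences from controls turned with single controls: at 1% it was 0.07 without control replicate 4, and at 0.05% it was -0.01 without control replicate 3. The 1% to control difference was -0.10 without 1% quercetin replicate 1. Among mice of the same diet the pair of Tead1 probe sets had a Pearson r of -0.33 and a Spearman rho of -0.05 over 18 mice after median scaling, given without a test because Tead1 was chosen with the disagreement of its probe sets known. Without the 2 mice farthest from the median the r was 0.31, so its sign rests on those mice. The sources used here hold no probe sequences, so which Tead1 transcripts each probe set reads was not analysed here.

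Tead3, a TEAD factor that binds the same hexamer, had a lower mean in both quercetin diets, in the opposite direction to Tead1 1429556_at. Its probe set 1420593_a_at had 6.25, 6.92 and 7.37 as the lowest, median and highest mice in controls, 5.99, 6.44 and 6.82 at 0.05%, and 5.87, 6.53 and 6.62 at 1%. The groups overlapped: all 6 mice at 1% and all 6 at 0.05% lay below the control mean, but only 1 of 6 in each lay below every control. The mean was 6.41 ± 0.28 at 1%, against 6.84 ± 0.42 in controls, a difference of -0.43 ± 0.18 (95% interval -0.81 to -0.06; limma unadjusted p = 0.0259, adjusted p = 0.936). At 0.05% the mean was 6.42 ± 0.29 and the difference from controls -0.43 ± 0.18 (95% interval -0.80 to -0.05; limma unadjusted p = 0.0276, adjusted p = 1.00). Neither difference passed the adjusted threshold. The controls are shared between them, so they are not independent of each other. Without 1% quercetin replicate 1, whose Tead3 level of 5.87 was the lowest of the 18 mice, the 1% to control difference was -0.32. Between the quercetin diets it was -0.01 ± 0.18 (95% interval -0.38 to 0.37; limma adjusted p = 0.998). In whole liver, fewer cells of a type that holds a transcript and less of the transcript per cell cannot be told apart.

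Tead2 and Tead4, factors known from the early mouse embryo, were near the low end of the array and did not pass the filter. Tead2 1448519_at had mean intensities of 2.5 in controls, 6.6 at 0.05% and 4.1 at 1%. The Tead4 probe set 1426337_a_at had 6.2, 5.7 and 4.9 in the same order, and 1460683_at had 1.9, 1.8 and 1.6. On the log2 scale the untested Tead2 differences were 0.10 for 1% against control and 0.27 for 0.05% against control, and those of Tead4 lay between -0.06 and 0.00. All of these groups overlapped. At these intensities the value of 16 added before the log2 outweighs the signal, so the log2 differences are compressed.

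Over the 15 member probe sets that passed the filter, from 7 genes, the fit called 0 at an adjusted p under 0.05 for 1% against control, where it called 0.00437% of all probe sets. It called 0 for 0.05% against control, where it called 0% of all, and 0 for 1% against 0.05%, where it called 0.00874% of all. Outside Tead1, 13 member probe sets were tested, and at an unadjusted p under 0.05 the count was 1 for 1% against control, beside 5.02% of all probe sets. It was 1 for 0.05% against control, beside 3.85% of all, and 0 for 1% against 0.05%, beside 6.76% of all. Tead3 was the member in both of the comparisons with controls. The lowest adjusted p of these 13 was 0.936, 1.00 and 0.910 in the 3 comparisons. Of the 15, 8 were higher and 7 lower at 1% than in controls, with a median log2 difference of 0.07 beside -0.05 over all tested probe sets. At 0.05% against control 7 were higher and 8 lower, with a median of -0.02 beside -0.003. At 1% against 0.05% 8 were higher and 7 lower, with a median of 0.02 beside -0.05. The counts include Tead1 1429556_at, higher in all 3 comparisons, whose direction at 1% against control the choice of the gene fixed. These counts moved with the scaling of the arrays: with each array at the same median 10 of 15 were higher at 1% than in controls and 12 of 15 were higher at 1% than at 0.05%. The same scaling moved the median over all tested probe sets to 0.03 and 0.06 in these comparisons.

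**Figure D3:**
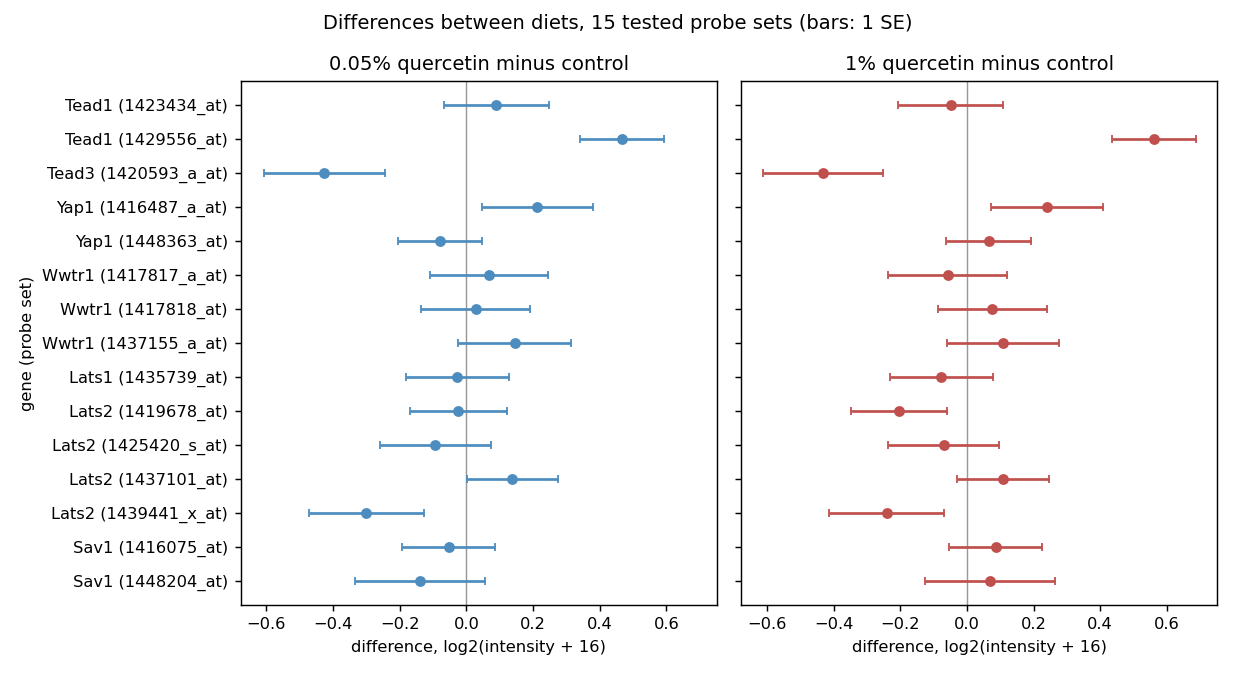
Log2 difference from control, in log2(intensity + 16), of the 15 member probe sets that passed the filter, at 0.05% and at 1% quercetin, with bars of 1 SE. Tead1 1429556_at stands at 0.47 and 0.56 and Tead3 at -0.43 in both, and the other points lie between -0.30 and 0.24.

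Yap1, the coactivator that binds TEAD factors, was read by 2 probe sets. The probe set 1448363_at had 9.20, 9.42 and 9.73 as the lowest, median and highest mice in controls, 9.20, 9.33 and 9.53 at 0.05%, and 9.25, 9.45 and 9.75 at 1%. The 3 diets lay over each other, with differences of 0.07 for 1% (95% interval -0.20 to 0.33) and -0.08 for 0.05% (95% interval -0.34 to 0.18) against control. The 1% to control difference of 1448363_at was 0.02 without 1% quercetin replicate 1. The other, 1416487_a_at, had 5.58, 6.16 and 6.40 in controls, 5.82, 6.39 and 6.49 at 0.05%, and 6.10, 6.16 and 7.00 at 1%. At 1% a single mouse, replicate 1, stood at 7.00 and the other 5 between 6.10 and 6.25. The difference of 0.24 ± 0.17 from controls (95% interval -0.11 to 0.59; limma adjusted p = 0.975) was 0.10 without that mouse. At 0.05% it was 0.21 ± 0.17 (95% interval -0.13 to 0.56), and 0.12 without control replicate 4. Among mice of the same diet both Yap1 probe sets moved together, with r = 0.83 and rho = 0.80 over 18 mice after median scaling (permutation p = 0.00023 and 0.00035, adjusted p = 0.00276 and 0.0042 over 12 pairs), and r = 0.72 without the 2 farthest mice. On values as deposited the Yap1 pair did not pass the threshold, with r = 0.41 (adjusted permutation p = 0.211), and after quantile normalization r was 0.75.

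Wwtr1, the second coactivator, was read by 3 probe sets, and the diets overlapped in each. The probe set 1417818_at had 7.77, 8.37 and 8.58 as the lowest, median and highest mice in controls, 7.97, 8.21 and 8.80 at 0.05%, and 8.16, 8.36 and 8.64 at 1%. Its differences from controls were 0.08 ± 0.16 at 1% and 0.03 ± 0.16 at 0.05%. The probe set 1417817_a_at differed by -0.06 ± 0.18 at 1% and 0.07 ± 0.18 at 0.05%, and 1437155_a_at by 0.11 ± 0.17 and 0.14 ± 0.17. None had an unadjusted p under 0.05 in any of the 3 comparisons. Single arrays turned the sign of small differences: at 1%, 1417817_a_at was 0.04 without 1% quercetin replicate 5 and 1417818_at was -0.03 without control replicate 1. They were -0.01 and 0.12 without 1% quercetin replicate 1. The 95% intervals of the 3 probe sets against controls ran from -0.43 to 0.49.

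Lats1 and Lats2 encode the kinases that phosphorylate Yap1 and Wwtr1. Lats1 1435739_at had 8.98, 9.19 and 9.62 as the lowest, median and highest mice in controls, 8.88, 9.25 and 9.49 at 0.05%, and 8.64, 9.16 and 9.59 at 1%. Its difference from controls was -0.08 ± 0.15 at 1% (95% interval -0.40 to 0.24) and -0.03 ± 0.15 at 0.05% (95% interval -0.35 to 0.29), within the spread of each group. Without 1% quercetin replicate 1 the 1% to control difference turned to 0.03, and without control replicate 6 the 0.05% to control difference turned to 0.05. The second Lats1 probe set, 1427679_at, did not pass the filter, with mean intensities of 7.0 in controls, 7.5 at 0.05% and 7.2 at 1%.

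Lats2 had 6 probe sets, of which 4 passed the filter, and these did not share a direction. Probe set 1439441_x_at, a type of probe set in which some probes can also match other transcripts, had 7.26, 7.48 and 8.07 as the lowest, median and highest mice in controls, 6.77, 7.37 and 7.54 at 0.05%, and 6.91, 7.35 and 7.75 at 1%. Its difference was -0.24 ± 0.17 at 1% (95% interval -0.60 to 0.12) and -0.30 ± 0.17 at 0.05% (95% interval -0.66 to 0.06), with overlap of the groups. The 1419678_at probe set differed by -0.20 ± 0.14 at 1% and -0.02 ± 0.14 at 0.05%, and 1425420_s_at by -0.07 ± 0.17 and -0.09 ± 0.17. In contrast, 1437101_at differed by 0.11 ± 0.14 at 1% and 0.14 ± 0.14 at 0.05%. Without 1% quercetin replicate 1 the 1% to control difference was -0.15 for 1439441_x_at, -0.03 for 1425420_s_at and 0.16 for 1437101_at. Without 0.05% quercetin replicate 2 the 0.05% to control difference of 1439441_x_at was -0.19. The limma adjusted p of all 4 was 0.910 or more in the 3 comparisons. The 2 Lats2 probe sets below the filter, 1419679_at and 1426156_at, had mean intensities between 1.3 and 7.1.

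Sav1, the scaffold of the Stk3 and Stk4 kinases, was read by 2 probe sets. Probe set 1448204_at had 7.56, 7.72 and 8.69 as the lowest, median and highest mice in controls, 7.43, 7.88 and 8.13 at 0.05%, and 7.63, 8.05 and 8.32 at 1%. Control replicates 5 and 6 stood highest, at 8.45 and 8.69, and the other 4 controls lay between 7.56 and 7.83. The differences were 0.07 ± 0.19 at 1% and -0.14 ± 0.19 at 0.05% against control, and 0.21 ± 0.19 at 1% against 0.05% (95% interval -0.19 to 0.61). The other, 1416075_at, differed by 0.09 ± 0.14, -0.05 ± 0.14 and 0.14 ± 0.14 in the same order. No Sav1 difference passed a test, and the signs of the differences from controls turned with single controls, except for 1416075_at at 1%. When leaving out each array, the 1% to 0.05% difference stayed between 0.13 and 0.29 for 1448204_at. For 1416075_at it stayed between 0.10 and 0.19. Without control replicate 6 the 0.05% to control difference was 0.01 for 1448204_at and 0.03 for 1416075_at, and without control replicate 3 the 1% to control difference was -0.01 for 1448204_at and 0.02 for 1416075_at.

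**Figure D4:**
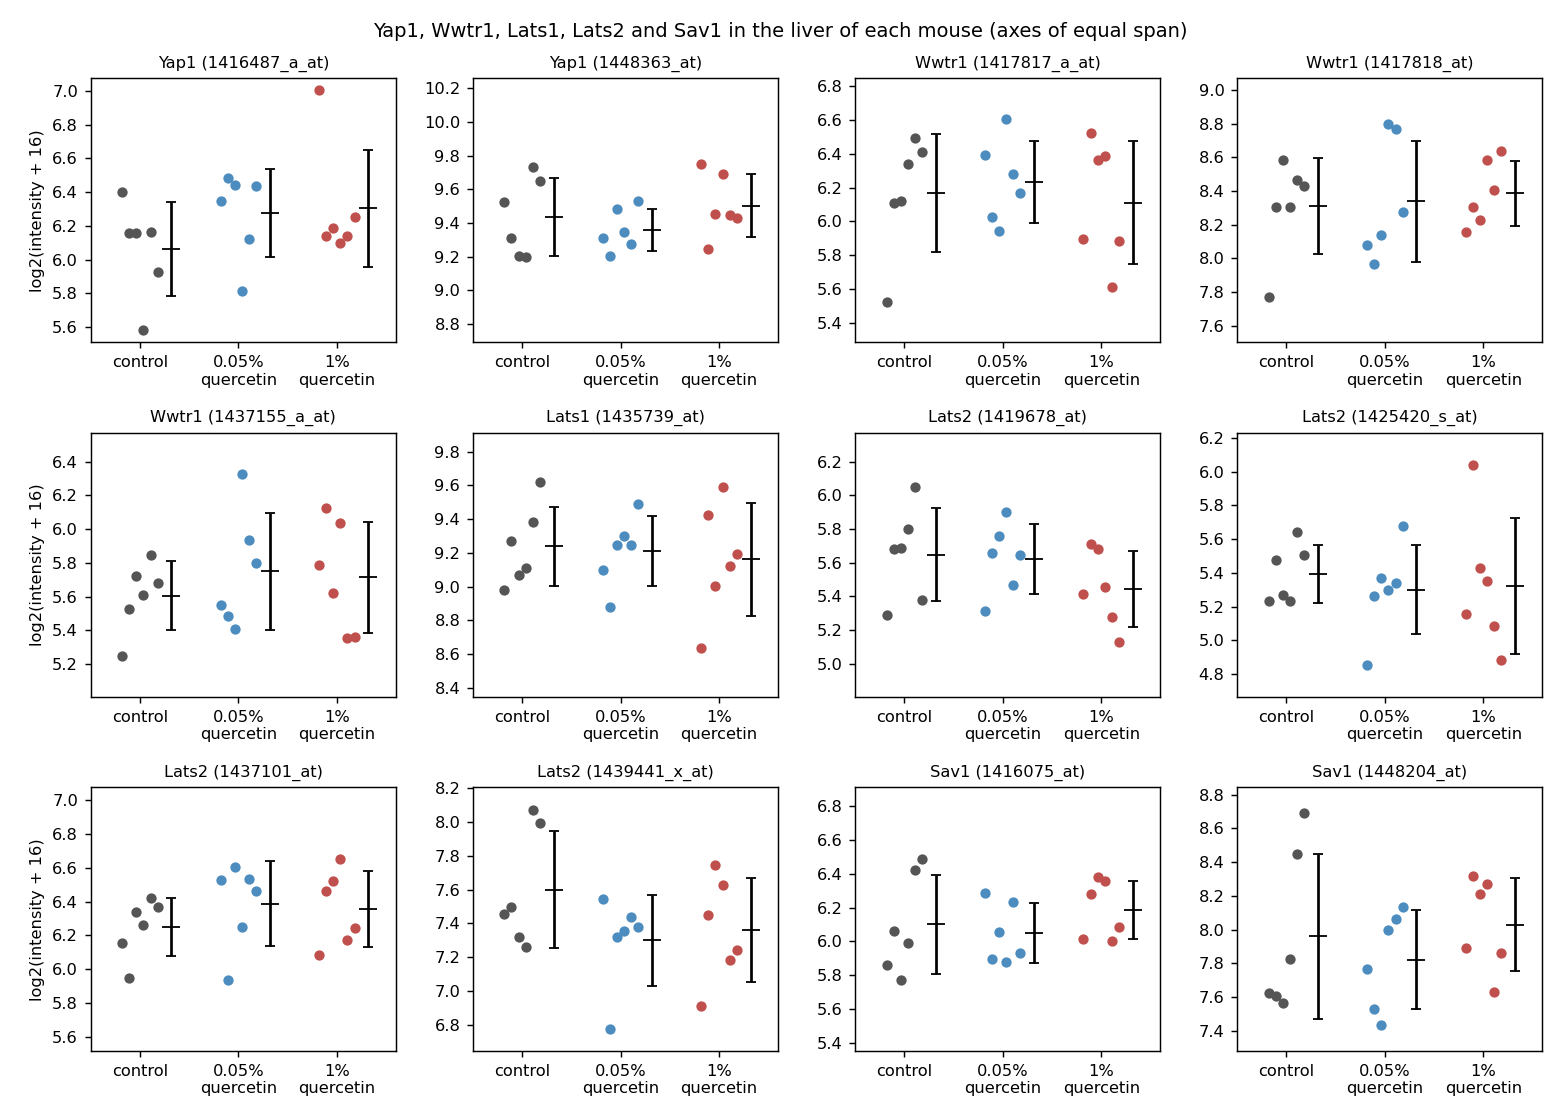
Level, log2(intensity + 16), of the 12 tested probe sets of Yap1, Wwtr1, Lats1, Lats2 and Sav1 in each mouse by diet, with 6 points per diet, a mark at the mean and bars of 1 SD. The diets overlap in all 12 panels, and 1% replicate 1 stands alone for Yap1 1416487_a_at.

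Genes around the core were taken from 2 lists drawn from textbook knowledge, each gene read by its probe set of highest mean. The list of upstream and partner genes held 22 genes, of which 21 were tested. At 1% against control 9 were higher and 12 lower, with a median of -0.02 beside -0.05 over all tested probe sets. At 0.05% against control 13 were higher and 8 lower, with a median of 0.05, and at 1% against 0.05% 9 were higher and 12 lower, with a median of -0.03. With median scaling of the arrays the counts at 1% turned round, to 15 higher and 6 lower against control and 14 higher and 7 lower against 0.05%. After quantile normalization they were 12 higher and 9 lower in both. None passed the adjusted threshold in any comparison. At an unadjusted p under 0.05 there were 2 higher genes at 1% against control, none at 0.05% against control, and 1 higher and 2 lower at 1% against 0.05%. In the same comparisons 5.02%, 3.85% and 6.76% of all tested probe sets had an unadjusted p under 0.05, and counts this small in 21 genes are not read as a result about the list.

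Map4k4 and Frmd6 were the 2 higher genes at 1% against control. Map4k4, a kinase that activates Lats1 and Lats2 in parallel to Stk3 and Stk4, had 5.80, 6.18 and 7.00 as the lowest, median and highest mice at 1%, and 5.28, 5.75 and 5.96 in controls. All 6 mice at 1% lay above the control mean and 3 above every control, with a difference of 0.55 ± 0.21 (limma unadjusted p = 0.0166, adjusted p = 0.897). Its other 3 tested probe sets differed by 0.74, 0.34 and 0.15, in the same direction. Frmd6, a membrane protein that feeds into the pathway, had 6.45, 6.84 and 7.77 at 1% and 6.03, 6.54 and 6.86 in controls. Its difference was 0.45 ± 0.19 (limma unadjusted p = 0.0266, adjusted p = 0.940) and was 0.29 without 1% quercetin replicate 1, which stood at 7.77. Frmd6 was also the higher gene at 1% against 0.05%, with a difference of 0.40 ± 0.19 (limma unadjusted p = 0.0462, adjusted p = 0.730) that was 0.24 without the same mouse.

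Vgll4, which competes with Yap1 for TEAD factors, had 6.02, 6.79 and 7.37 as the lowest, median and highest mice at 1%, and 7.01, 7.15 and 7.55 at 0.05%. Of the 6 mice at 1%, 4 lay below every mouse at 0.05%, and the difference was -0.47 ± 0.18 (limma unadjusted p = 0.0140, adjusted p = 0.592). The 1% to control difference was -0.35 ± 0.18, with controls at 6.80, 7.09 and 7.32, and it was -0.20 without 1% quercetin replicate 6. Taok3, a kinase upstream of Stk3 and Stk4, had 7.06, 8.56 and 9.36 at 1%, and 8.78, 9.03 and 9.17 at 0.05%. The difference was -0.57 ± 0.25 (limma unadjusted p = 0.0351, adjusted p = 0.695), and its other 3 tested probe sets differed by -0.59, -0.47 and -0.37. Without 1% quercetin replicate 1, at 7.06, the Taok3 difference between the 1% and 0.05% diets was -0.29. Nf2, which encodes the upstream activator merlin, differed by -0.22 ± 0.12 at 1% and -0.18 ± 0.12 at 0.05% against control, and its other 3 tested probe sets by -0.18, -0.13 and -0.03 at 1%.

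The list of known YAP and TEAD target genes held 22 genes, of which 18 were tested, and none passed the adjusted threshold in any comparison. At 1% against control 6 were higher and 12 lower, with a median of -0.08 beside -0.05 over all tested probe sets. At 0.05% against control 11 were higher and 7 lower, with a median of 0.07 beside -0.003. At 1% against 0.05% 3 were higher and 15 lower, with a median of -0.12 beside -0.05. With median scaling the targets split 9 and 9 at 1% against control, and 8 higher and 10 lower at 1% against 0.05%. After quantile normalization they again split 9 and 9 against control, but 4 were higher and 14 lower at 1% against 0.05%. The target median between the quercetin diets was -0.01 with median scaling, beside 0.06 over all tested probe sets. After quantile normalization it was -0.07, beside 0.002. At an unadjusted p under 0.05, with each gene read by 1 probe set, there was 1 lower gene in each comparison and none higher. That is 1 of 18 genes beside 5.02% of all tested probe sets at 1% against control, 3.85% at 0.05% against control and 6.76% at 1% against 0.05%, a share near that of all probe sets, so the genes named next are described singly and not as a result about the targets.

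Ccn2, which encodes a secreted matrix-associated protein and is widely used to read YAP activity, was the lower gene in both comparisons with controls. It had 6.66, 7.56 and 8.27 as the lowest, median and highest mice in controls, 6.33, 6.98 and 7.39 at 0.05%, and 6.37, 6.69 and 7.27 at 1%. All 6 mice on each quercetin diet lay below the control mean, 3 at 1% and 2 at 0.05% below every control. The difference was -0.74 ± 0.25 at 1% (limma unadjusted p = 0.00721, adjusted p = 0.870) and -0.64 ± 0.25 at 0.05% (limma unadjusted p = 0.0181, adjusted p = 1.00). Neither passed the adjusted threshold, and Ccn2 had the opposite sign to Tead1 1429556_at in both. Leaving out each array in turn kept the 1% to control difference between -0.91 and -0.59. The controls were split: replicates 1, 2 and 3 had 8.27, 8.01 and 7.90, and replicates 4, 5 and 6 had 6.66, 6.87 and 7.22. Control replicates 4, 5 and 6 lay within the range of each quercetin diet. Leaving out 1 array at a time cannot show how far the difference rests on control replicates 1, 2 and 3.

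Ccn1, a protein of the same family whose promoter window is printed above, was the lower gene at 1% against 0.05%. The probe set 1416039_x_at had 5.71, 6.95 and 9.15 as the lowest, median and highest mice in controls, 6.52, 7.91 and 8.61 at 0.05%, and 5.32, 6.44 and 7.83 at 1%. Of the 6 mice at 1%, 3 lay below every mouse at 0.05%, with a difference of -1.22 ± 0.51 (limma unadjusted p = 0.0242, adjusted p = 0.639). Its other 3 tested probe sets differed by -0.87, -0.82 and -0.78 in this comparison. All 4 were higher at 0.05% than in controls, by 0.55 ± 0.51, 0.48 ± 0.40, 0.87 ± 0.29 and 0.87 ± 0.27 in the same order, the opposite sign to Ccn2. At 1% against control the 4 Ccn1 probe sets disagreed, with differences of -0.67, -0.39, 0.05 and 0.10. The first of these, of 1416039_x_at, was -0.44 without 1% quercetin replicate 1 and -0.28 without control replicate 1. The control SD of 1416039_x_at was 1.39, and this probe set had the largest SE of the 4. It alone stands for Ccn1 in the list counts above, so the 0.05% to control differences of the other 3 are not in those counts.

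Among the remaining targets, Gadd45a, a stress-induced growth arrest gene, had a mean of 6.53 ± 0.43 at 1% and 7.05 ± 0.78 in controls, a difference of -0.52 ± 0.31 that was -0.32 without control replicate 2. Birc5, which encodes the cell division protein survivin, differed by 0.43 ± 0.27 at 0.05% against control and by -0.004 ± 0.27 at 1% against control, which was 0.16 without 1% quercetin replicate 1. Myof, a membrane repair gene, differed by 0.22 ± 0.18 at 1%, and by 0.12 without control replicate 1. Ankrd1, a heart and muscle nuclear protein, differed by -0.15 ± 0.13 at 1%, and by -0.08 without 1% quercetin replicate 1. These 4 genes did not differ from controls at an unadjusted p under 0.05.

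**Figure D5:**
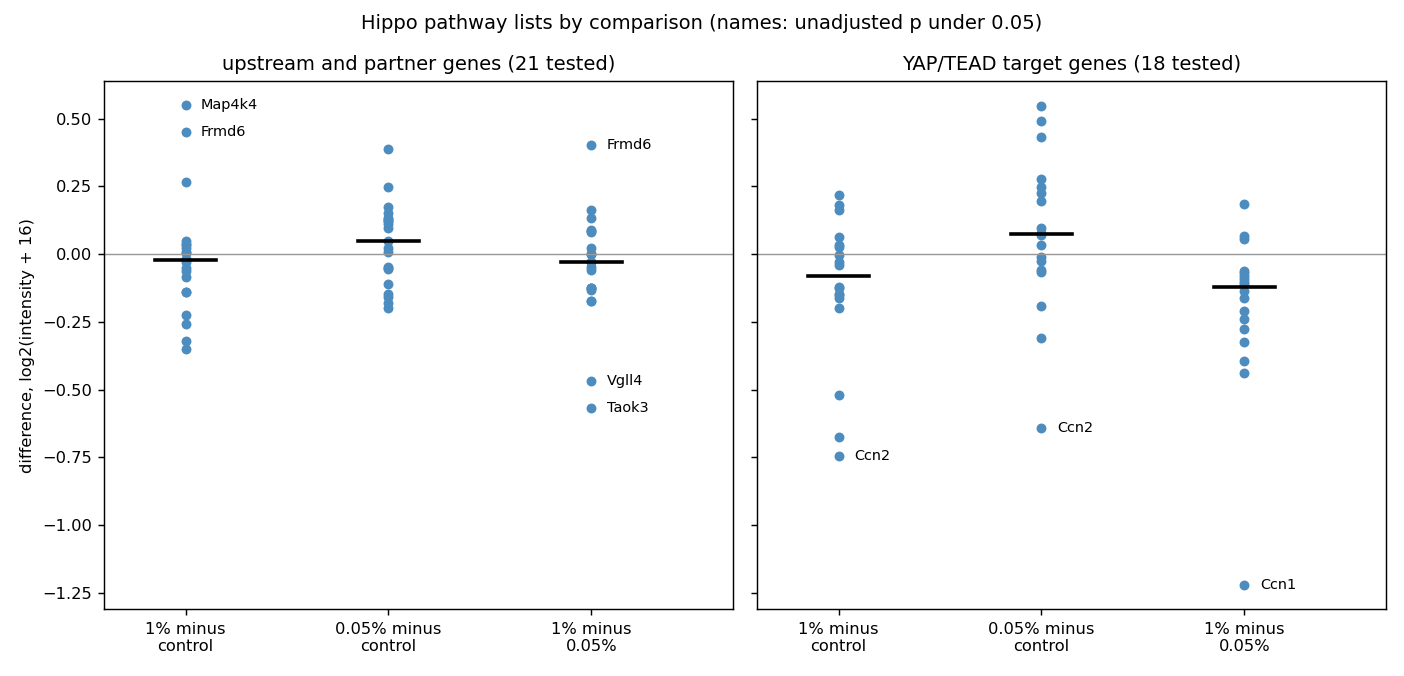
Log2 differences, in log2(intensity + 16), of 21 tested upstream and partner genes and 18 tested YAP/TEAD target genes in the 3 comparisons, 1 point per gene, with a bar at the median. Names mark genes with an unadjusted p under 0.05, of which Ccn1 lies lowest at -1.22 for 1% against 0.05%.

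Markers of other liver cells were read beside these genes. The mean over 7 stellate cell and fibroblast markers lay between 7.40 and 7.85 in controls, between 7.34 and 8.03 at 0.05% and between 7.15 and 7.69 at 1%, with 1 of 7 markers at an unadjusted p under 0.05 for 1% against control and 0 of 7 for 0.05%. Over 4 cholangiocyte markers with a probe set it lay between 5.14 and 5.59 in controls, between 5.07 and 5.43 at 0.05% and between 5.02 and 5.58 at 1%, with 0 of 4 at an unadjusted p under 0.05. The mean over 5 neutrophil markers lay between 5.40 and 7.48 in controls, between 5.34 and 5.89 at 0.05% and between 5.95 and 6.96 at 1%, with 4 of 5 markers at an unadjusted p under 0.05 for 0.05% against control and 1 of 5 for 1%. The mean over 7 endothelial markers lay between 7.01 and 7.46 in controls, between 7.18 and 7.68 at 0.05% and between 6.86 and 7.70 at 1%, with 1 of 7 at an unadjusted p under 0.05 for 0.05% against control and 0 of 7 for 1%. Among all tested probe sets, 5.02% had an unadjusted p under 0.05 for 1% against control and 3.85% for 0.05% against control. The median difference of the neutrophil markers from controls was -0.57 at 0.05% and 0.13 at 1%. For the stellate cell and fibroblast markers it was 0.01 at 0.05% and -0.24 at 1%. That of the endothelial markers was 0.23 and 0.01, and that of the cholangiocyte markers -0.002 and 0.008, in the same order. The part of these cell types in the Tead1, Tead3 and Ccn2 differences was not tested.

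Within diets, no correlation of the Tead1 probe set 1429556_at with another member passed the threshold after median scaling. Deviations from the diet means after median scaling were correlated over 18 mice with the probe set of highest mean of each of 6 other genes, and 0 of 6 passed an adjusted p under 0.05. Yap1 had r = 0.44 and rho = 0.50 (permutation p = 0.071 and 0.044, adjusted p = 0.427 and 0.264 over 6 pairs), and r = 0.37 without the 2 farthest mice. Tead3 had r = -0.24 and rho = -0.07 (permutation p = 0.377 and 0.812, adjusted p = 0.657 and 0.975), and r = -0.21 without the 2 farthest mice. The size and order of these values moved with the scaling: after quantile normalization r was 0.13 for Yap1, -0.44 for Tead3 and -0.51 for Lats1, and on values as deposited it was 0.35 for Yap1, 0.53 for Lats2 and 0.62 for Sav1. None of the 6 pairs passed an adjusted p under 0.05 under either of these scalings (lowest adjusted permutation p = 0.246 after quantile normalization and 0.104 as deposited).

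The genes whose levels over all 18 mice were most like Tead1 1429556_at, by Pearson r among 22886 other tested probe sets after median scaling, were App with 0.90, Rps18 with 0.90, Frat1 with 0.84, Tmem186 with 0.84 and Dnmbp with 0.83. The most opposite were Cfap298 with -0.79, 2210406O10Rik with -0.78 and Gna14 with -0.77. These values describe likeness only: they include the diet difference for which Tead1 was chosen and share the scaling of each array. The genes were also picked as the extremes of 22886 probe sets over the same 18 mice. Part of each r, within diets too, can come from that pick. After removal of the diet means the r was 0.70 for App, 0.70 for Rps18, 0.56 for Frat1, 0.69 for Tmem186 and 0.65 for Dnmbp, and -0.14 for Cfap298, -0.61 for 2210406O10Rik and -0.28 for Gna14. App averaged 10.07 in controls, 10.34 at 0.05% and 10.38 at 1%. No member of the pathway or its 2 lists was among these 8 genes.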

How the data were processed

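Liver RNA of 18 mice, 6 per diet, was hybridised to Affymetrix mouse arrays with a 3-prime labelling kit, 1 mouse per array, per the labels' protocols. The deposited values are linear intensities, 1 per probe set and array, for 45101 probe sets: 64 controls, 34945 with 1 gene symbol, 932 with several and 9160 with none. The authors' signal software, scaling and test: not given in the sources used here. Precision is set by the number of arrays, since arrays have no read depth. Symbols came from the platform annotation and were checked by Entrez number against RefSeq genes (34741 matched, 0 differed).

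Values were taken as deposited, 16 was added and log2 taken. Probe sets with 1 symbol and a mean above the 40th percentile of non-control probe sets were tested, 22888 from 12885 genes. limma 3.58.1 under R 4.3.3 fitted 3 diet means with lmFit and eBayes over all 18 arrays (15 residual and 7.74 prior degrees of freedom), two-sided, with Benjamini-Hochberg adjusted p under 0.05 over the whole table. The script was tested on simulated data. Correlations within diets used deviations from the diet means of median-scaled values, 100000 permutations and adjustment within 2 families of 6 and 12 pairs. The arrays were grouped by the diet in their labels. Equal replicate numbers did not pair the mice: the deviations of same-numbered arrays correlated between -0.42 and 0.27, with 4 of 18 pairs over 0.1.

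The members and lists were chosen with earlier results of these data known. All members were named, with the 4 genes of each list of smallest p at 1% against control, the 2 of smallest p in each other comparison, Ccn1, Ccn2 and Ankrd1, and the 5 most and 3 least Tead1-like genes. Alternatives were 2 scalings, 2 filters, 1 in place of 16, eBayes with trend and robust, array weights, 1 probe set per gene, 12 arrays only, a replicate block and leaving out each array. Markers of 8 cell types were averaged per mouse. Kupffer cell, lymphocyte and hepatocyte markers had 0 members at an unadjusted p under 0.05 against control. The share of all tested probe sets was 5.02% at 1% and 3.85% at 0.05%.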

Additional observations from a re-analysis of the deposited data

Results flagged for a closer look

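Among 45 groups of 6 mice, 3 diets for each of 15 member probe sets, 4 held a mouse whose gap to its nearest neighbour took up more of the range of its group than the 95% critical value of Dixon's test allows, which chance gives in about 1 of 20 groups. For Tead3 1420593_a_at, 1% quercetin replicate 1 stood at 5.87 and the other 5 mice between 6.38 and 6.62. For Yap1 1416487_a_at the same mouse stood at 7.00 and the others between 6.10 and 6.25. For Wwtr1 1417818_at, control replicate 1 stood at 7.77 and the other controls between 8.31 and 8.58. For Lats2 1439441_x_at, 0.05% quercetin replicate 2 stood at 6.77 and the others between 7.32 and 7.54. No Tead1 value stood apart in this way.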

How the results depend on the processing

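The count of called probe sets over the whole table was small and moved with most choices. For 1% against control the fit called 1. It called 2 with quantile normalization, array weights or the replicate block, and 0 with the filter at the 60th percentile, 1 added before log2, 1 probe set per gene or only the 12 arrays compared. Leaving out each array gave 0 to 5: 5 without control replicate 3, 2 without 0.05% quercetin replicate 4 or 1% quercetin replicate 6, and 0 without control replicate 2, 5 or 6 or 1% quercetin replicate 1, 2, 3 or 5. For 0.05% against control the fit called 0, against 1 with median scaling, quantile normalization, no filter or array weights, and 0 to 1 when leaving out each array, with 1 without 0.05% quercetin replicate 1 or 4. For 1% against 0.05% the fit called 2. It called 19 with array weights, 14 with only the 12 arrays compared, 1 with no filter or 1 added, and 0 with quantile normalization, the filter at the 60th percentile, 1 probe set per gene or the replicate block. Leaving out each array gave 0 to 3, with 0 without 0.05% quercetin replicate 4, 5 or 6 or 1% quercetin replicate 3, 4 or 6. Member probe sets outside Tead1 called stayed at 0 in all of these settings. Over all members the count was 1 for 1% against control after quantile normalization, a Tead1 probe set, which is the difference that chose the gene and so no test of it.

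No member difference moved by more than the spread between mice in 410 values per comparison. The sign changed in 16 of them at 1% and 20 at 0.05% against control, and in 34 between the quercetin diets, and 9, 8 and 7 of the 15 probe sets kept their sign in all settings. Of 1085 values per comparison for the 2 lists, 2 moved beyond that spread, both for 1% against control, and 83, 41 and 56 changed sign. The within-diet correlation of Tead1 with Lats1 was -0.16 after median scaling, 0.42 on values as deposited and -0.51 after quantile normalization. That of Tead1 with Sav1 was 0.17, 0.62 and 0.08, and that with Yap1 0.44, 0.35 and 0.13, in the same order. That of Tead1 with Wwtr1 was -0.098 and that of Tead1 with Lats2 was -0.046 after quantile normalization, beside 0.12 and 0.23 after median scaling. For Lats2 1419678_at and 1439441_x_at it was 0.16 as deposited and 0.064 after quantile normalization, beside -0.05 after median scaling. The cause of these shifts was not tested. Equal replicate numbers paired no mice, since 3 of 18 arrays correlated best with their own number. The median standard error of 0.16 limits what 6 mice per diet can show.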

Other observations

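Probe sets of 1 gene were compared from mouse to mouse. Over 12 pairs of member probe sets and 18 mice, within diets and after median scaling, 5 pairs passed an adjusted p under 0.05 for Pearson r. Beside the Yap1 pair these were 1417817_a_at and 1437155_a_at of Wwtr1 (r = 0.60), 1419678_at and 1425420_s_at of Lats2 (r = 0.53), 1437101_at and 1439441_x_at of Lats2 (r = 0.61) and the Sav1 pair (r = 0.56), with an adjusted permutation p of 0.0500 for each. That adjusted permutation p, 0.04997 with more digits, is shared by these 4 pairs and lies at the threshold. Another draw of permutations could move it across, so only the Yap1 pair passed with a margin. For Spearman rho these 4 had adjusted p values between 0.053 and 0.084. Without the 2 farthest mice r was 0.41, 0.60, 0.61 and 0.63 in that order. The other 7 pairs had r between -0.33 and 0.15. The Tead1 pair is among these and is described only, without a test, but it counts in the 12 pairs of the adjustment. These values depend on the scaling of the arrays. On values as deposited, Wwtr1 1417818_at had r = 0.48 with 1417817_a_at and 0.59 with 1437155_a_at (adjusted permutation p = 0.0934 and 0.0383), beside 0.07 and 0.15 after median scaling, and the Yap1 pair had 0.41, beside 0.83. After quantile normalization the Sav1 pair had r = 0.51 (adjusted permutation p = 0.0896).

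The target genes Ccn1, Ccn2 and Gadd45a had the same controls at the top, a pattern seen after the values were examined and given without a test. Control replicates 1 and 2 had 9.15 and 8.43 for Ccn1 1416039_x_at, and the other controls between 5.71 and 7.00. For Ccn2 the same mice had 8.27 and 8.01, control replicate 3 had 7.90, and the others lay between 6.66 and 7.22. For Gadd45a they had 7.94 and 8.05 and the others between 6.25 and 6.95. For Tead1 1429556_at the same 2 controls had 6.49 and 6.50, within the range of the other controls.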
